A study of Mus musculus with 10 samples.

Results

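The genes of oxidative phosphorylation were followed in RNA from mouse small cell lung cancer, a neuroendocrine lung tumor, with the genes carried by mitochondrial DNA set against those carried by the nucleus. Members were taken by name: the mt-Nd, mt-Co, mt-Atp and mt-Cyt genes, the Ndufa, Ndufb, Ndufc, Ndufs and Ndufv families, Sdha to Sdhd, and names that start with Uqcr, Cox4 to Cox8 or Atp5, with Ndufs5 left out. This gave 107 of the 35288 gene identifiers in the table, 13 of them mitochondrially and 94 nuclear encoded. Of the nuclear identifiers 11 are pseudogenes by annotation, which are counted and not described. Of the 107, 94 reached a mean of 1 TPM over all libraries (TPM, a gene's length-corrected share of all transcripts, scaled to a fixed total) and were tested: the 13 mitochondrially encoded genes and 81 nuclear ones. The 13 members below that level were 10 pseudogenes, Cox7b2, Cox8b and a second identifier named Atp5o.

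The study sequenced polyA RNA from 10 macrodissected tumor samples of 6 mice. Lung tumors came from 3 RPR2 mice (JHK1373, JHK1394 and JHK1548) and from 3 mice of the genotype RPR2;Nfibf/f, written Nfib-floxed below (JHK997, JHK1398 and JHK1399). Liver metastases came from 2 of those RPR2 mice (JHK1373 and JHK1394) and from 2 of the Nfib-floxed mice (JHK1398 and JHK1399). RPR2 is the usual short name of a model with conditional alleles of Rb1, Trp53 and Rbl2, tumor suppressor genes that Cre removes in lung cells, so both genotypes carry those alleles and only the conditional allele of Nfib, a transcription factor gene, sets them apart. The labels give no age, no route of Cre and no count of tumors per sample, and name the 2 genotypes and the 2 tissues only.

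Oxidative phosphorylation passes electrons from NADH and succinate through complexes I to IV of the inner mitochondrial membrane to oxygen, and complex V, the ATP synthase, uses the resulting proton gradient to make ATP. Mitochondrial DNA carries core subunits of complexes I, III, IV and V and is copied into long RNAs that are cut into single messages, whereas all of complex II and most subunits of the others are nuclear genes made in the cytosol and imported. Small cell lung cancer is a fast-growing tumor in which both glycolysis and respiration are known to run.

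A few facts of the libraries bear on all values. The Nfib transcript itself lay at 26.5 to 38.6 TPM in the Nfib-floxed lung tumors and at 28.3 to 118 in the RPR2 lung tumors, ranges that overlap, and at 41.3 and 46.1 against 62.8 and 643 in the metastases. A list of 9 neuroendocrine markers summed to 2443 and 3661 TPM in the RPR2 metastases of JHK1373 and JHK1394 and to 7582 to 75259 TPM in the other 8 libraries, with no marker at 0. The summed level of 6 club cell markers, led by the airway gene Scgb1a1, was 56134 and 60914 TPM in the lung tumors of JHK1398 and JHK1394. It lay at 2048 to 12792 TPM in the remaining 4 lung tumors and at 86.6 to 330 in the metastases. The summed level of 16 hepatocyte markers was 12621 and 13176 TPM in the RPR2 metastases against 159 and 3827 in the Nfib-floxed ones. That of 6 erythroid markers was 64955 and 4141 TPM in the RPR2 metastases of JHK1373 and JHK1394, 476 and 42987 TPM in the Nfib-floxed ones of JHK1398 and JHK1399, and 667 to 11755 TPM in the lung tumors. The part of these cells in the shares that follow was not tested. None of the defining hepatocyte or club cell markers was at 0 in any library. The lung tumor of JHK1398 stood apart from the rest in many genes. The mitochondrially encoded shares, ratios and medians of the lung tumors are given with and without it. Most differences of single genes are given with it only. In bulk RNA, fewer cells of a type and less RNA per cell cannot be told apart.

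The mitochondrially encoded genes made up a larger share of all transcripts in the Nfib-floxed than in the RPR2 lung tumors, whereas the share of the nuclear encoded genes overlapped between them. In the RPR2 lung tumors of JHK1373, JHK1394 and JHK1548 the 13 genes summed to 4.98%, 4.32% and 5.20% of TPM. In the Nfib-floxed lung tumors of JHK997, JHK1398 and JHK1399 they summed to 5.41%, 12.9% and 7.13%. The groups did not overlap, but the lowest Nfib-floxed value lay close to the highest RPR2 value. The lung tumor of JHK1398 stood alone above all others. The lack of overlap rests on mt-Atp8, the shortest of the 13 genes, which made up 14.7% of the sum in JHK997 and 6.88% in JHK1548. With that gene left out, JHK997 would lie below JHK1548. The means were 4.83% ± 0.455 (SD, n = 3) and 8.47% ± 3.91 (SD, n = 3), and 6.27% in the Nfib-floxed group without JHK1398. The 94 nuclear identifiers summed to 2.52%, 2.32% and 3.07% in the RPR2 and to 2.13%, 2.55% and 2.72% in the Nfib-floxed lung tumors, and these ranges overlap.

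The ratio of the 2 sums does not depend on the library total and gave the same order of the groups in the lung tumors. Mitochondrially encoded TPM was 1.98, 1.86 and 1.69 times the nuclear encoded TPM in the RPR2 lung tumors of JHK1373, JHK1394 and JHK1548. It was 2.54, 5.04 and 2.62 times in the Nfib-floxed lung tumors of JHK997, JHK1398 and JHK1399. All 3 Nfib-floxed lung tumors thus lay above all 3 RPR2 lung tumors, also with JHK1398 set aside. The ratio of JHK997 came with the lowest nuclear share of the 10 libraries, 2.13%, and 22 of the 81 tested nuclear genes were at their lowest there. On the log2 scale the group means were 0.88 ± 0.11 and 1.69 ± 0.56 (SD, n = 3 each), and 1.37 in the Nfib-floxed group without JHK1398. No test was run on the sums, because the members were chosen with results of these data known.

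In the liver metastases the genotypes lay closer. The mitochondrially encoded share was 6.003% and 5.44% in the RPR2 metastases of JHK1373 and JHK1394 and 6.42% and 6.62% in the Nfib-floxed metastases of JHK1398 and JHK1399, again with no overlap. The ratio to the nuclear sum was 2.35 and 1.84 in RPR2 and 2.03 and 3.00 in Nfib-floxed metastases, and here the groups overlap. The higher ratio of the JHK1399 metastasis came with the lowest nuclear share of the 4 metastases, 2.21% against 2.55% to 3.17%.

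**Figure D1:**
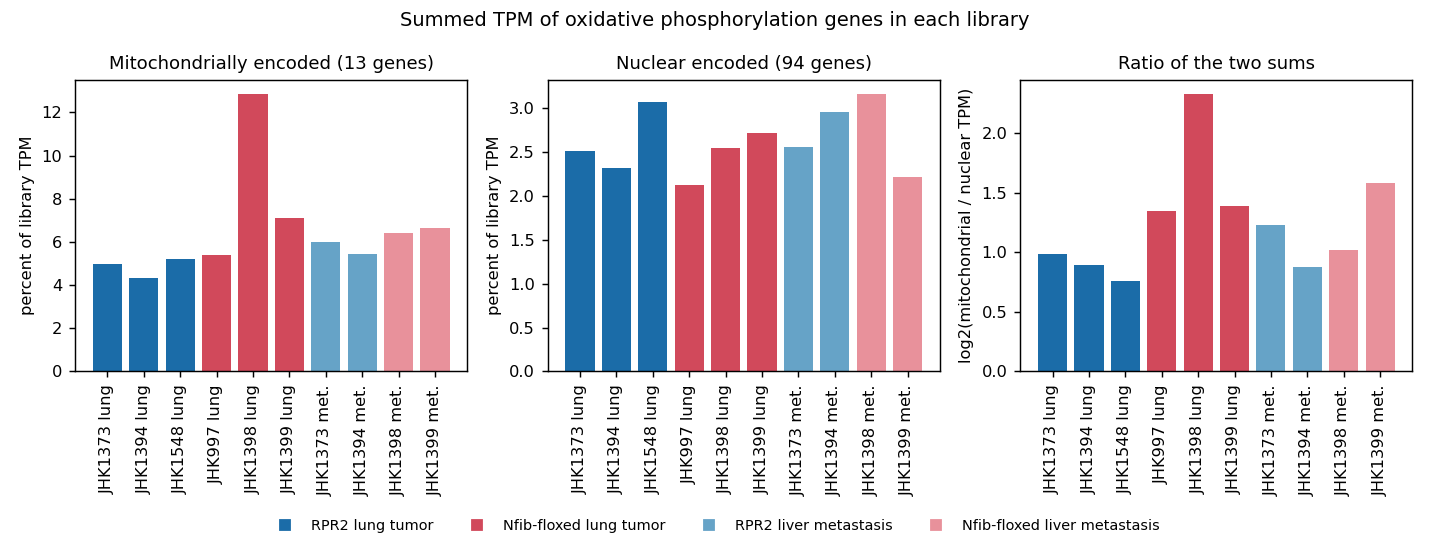
Summed TPM of the mitochondrially encoded genes (left) and the nuclear encoded genes (middle) as a percent of each library, and the log2 ratio of the sums (right); each bar is 1 library, colored by group. The lung tumor of JHK1398 reaches 12.9% on the left, and in the right panel the 3 Nfib-floxed lung tumors lie above the 3 RPR2 lung tumors.

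Within a mouse, the metastasis and the lung tumor differed in opposite directions in the 2 genotypes. The mitochondrially encoded share was 1.02 and 1.12 percentage points higher in the metastasis than in the lung tumor of the RPR2 mice JHK1373 and JHK1394. The same difference was -6.45 points in JHK1398 and -0.503 points in JHK1399, both Nfib-floxed; the change in JHK1398 starts from the lung tumor that stands apart. By gene, 11 of the 13 were higher in the metastasis in each RPR2 mouse, none was in JHK1398 (0 of 13) and 4 of 13 were in JHK1399. Of the 81 nuclear encoded genes, 45 and 65 were higher in the metastasis in JHK1373 and JHK1394, 50 in JHK1398 and 14 in JHK1399.

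No member passed the test in any of the 7 comparisons of the fit over all genes. The test was limma on log2(TPM + 1), with a Benjamini-Hochberg adjusted p under 0.05 over 15503 genes, so a difference is on the log2(TPM + 1) scale and understates that of low genes. Between genotypes, 0 of 94 members passed in the lung tumors (all genes 0.0%), with 5 members higher and 1 lower in Nfib-floxed tumors at an unadjusted p under 0.05, where 488 and 742 of the 15503 genes were. In the metastases 0 of 94 passed (all genes 2.04%), with 3 higher and 0 lower at the unadjusted level (all genes 1055 and 933). Metastases against lung tumors gave 0 of 94 in RPR2 mice (all genes 5.61%), with 0 higher and 1 lower unadjusted (all genes 838 and 2081). They gave 0 of 94 in Nfib-floxed mice (all genes 0.123%), with 1 higher and 2 lower unadjusted (all genes 416 and 1039). The interaction of genotype and tissue gave 0 of 94 (all genes 0.581%), with 0 higher and 1 lower unadjusted (all genes 824 and 676). The mean genotype effect over both tissues gave 0 of 94 (all genes 0.587%), with 4 higher and 1 lower unadjusted (all genes 979 and 1095). The mean tissue effect over both genotypes gave 0 of 94 (all genes 5.88%), with 1 higher and 3 lower unadjusted (all genes 893 and 2329). The 2 tissue comparisons and the mean tissue effect share libraries, and a p that misses the threshold does not show that levels were alike.

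The median difference of the mitochondrially encoded genes was therefore read only as a description. Nfib-floxed minus RPR2 lung tumors gave a median of 0.69 over the 13 genes, with 13 above 0, against -0.11 over the 81 nuclear encoded genes and -0.10 over all genes tested. In the metastases the same medians were 0.10, -0.09 and 0. Metastases minus lung tumors gave 0.26, 0.06 and -0.15 in RPR2 mice, and -0.32, 0.11 and -0.05 in Nfib-floxed mice, each in the order mitochondrially encoded, nuclear encoded and all genes. Without the lung tumor of JHK1398, the lung genotype median was 0.32, with 12 of 13 above 0, and the tissue median in Nfib-floxed mice was 0.14. Without the lung tumors of JHK1394 and JHK1398, the pair rich in club cell markers, the lung genotype median was 0.20. The part of those cells in the values was not tested.

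**Figure D2:**
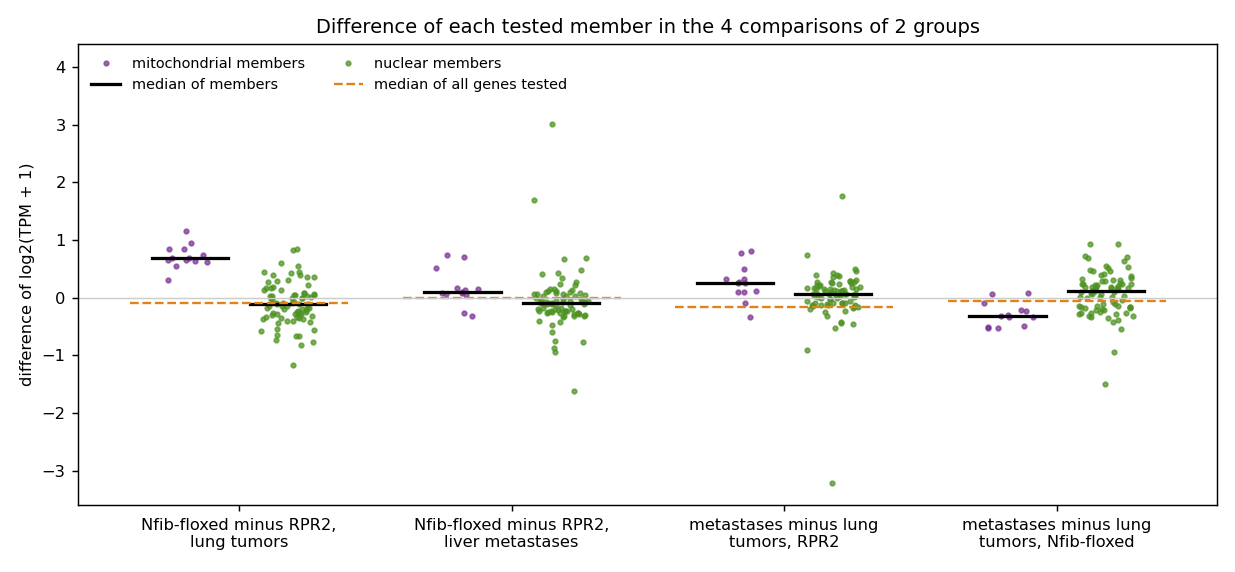
Difference of log2(TPM + 1) for each tested member (1 point a gene, 13 mitochondrially and 81 nuclear encoded) in the 4 comparisons of 2 groups, with the median of each set as a black bar and the median of all 15503 genes as a dashed line. All 13 mitochondrially encoded genes lie above 0 between the lung tumors, and the widest nuclear points, at 3.02 and -3.20, are Cox6a2.

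Among the mitochondrially encoded subunits, mt-Atp8 of the ATP synthase and mt-Nd1 of complex I separated the lung tumors by genotype. mt-Atp8 stood at 4082, 3610 and 3575 TPM in the RPR2 lung tumors of JHK1373, JHK1394 and JHK1548, and at 7924, 11654 and 6255 TPM in the Nfib-floxed ones of JHK997, JHK1398 and JHK1399. The groups do not overlap, also without JHK1398, and the difference was 1.15 (SE 0.37) with an adjusted p of 0.59 by limma. Part of the reads of mt-Atp8 is shared with mt-Atp6, as given below, which limits these levels. At 204 bases mt-Atp8 is also the shortest of the 13 genes, and the part of its length in these levels was not tested. mt-Nd1 stood at 2670, 2216 and 3087 TPM in the RPR2 and at 4089, 7703 and 4200 TPM in the Nfib-floxed lung tumors, again with no overlap, a difference of 0.95 (SE 0.36) and an adjusted p of 0.59 by limma. In the metastases mt-Nd1 took the opposite order, with 4678 and 4301 TPM in RPR2 and 3428 and 3749 TPM in Nfib-floxed, and its interaction of genotype and tissue was -1.28 (SE 0.56) with an adjusted p of 0.50 by limma. These were 2 of 13 mitochondrially encoded and 4 of 81 nuclear encoded genes that were higher without overlap in the Nfib-floxed lung tumors, where 5.66% of all genes were, and 0 of 13 and 4 of 81 were lower without overlap, where 8.81% of all genes were. Among the nuclear genes higher were Ndufs3 of the core of complex I, its accessory subunit Ndufa6 and a pseudogene of Ndufb4, and the 4 lower were Atp5f1, Cox7a2l, Ndufc2 and Sdhd.

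The mitochondrial genes of the other complexes overlapped more between genotypes. mt-Co1, mt-Co2 and mt-Co3, the catalytic core of cytochrome c oxidase, were the most abundant members at means of 11584, 10796 and 12325 TPM. mt-Co1 lay at 7431 to 10322 TPM in the RPR2 and at 9527, 23400 and 11618 TPM in the Nfib-floxed lung tumors, which overlap. mt-Cytb, the one complex III subunit of mitochondrial DNA, lay at 2598 to 3413 TPM in the RPR2 lung tumors and at 2517, 10372 and 4666 TPM in the Nfib-floxed ones, where JHK997 was the lowest of all 10 libraries. mt-Nd3 changed the sign of its lung genotype difference, from 0.31 to -0.02, when JHK1398 was left out. In the metastases 4 of 13 (mt-Co2, mt-Co3, mt-Nd5 and mt-Nd6) were higher without overlap in Nfib-floxed libraries, with 9 of 81 nuclear genes, where 23.8% of all genes were. Lower without overlap were 2 of 13 (mt-Nd1 and mt-Nd2) and 9 of 81, where 22.0% of all genes were.

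Metastases were also set against lung tumors within each genotype. In RPR2 mice 6 of 13 mitochondrially encoded genes (mt-Nd1, mt-Nd2, mt-Nd4, mt-Nd4l, mt-Cytb and mt-Atp8) and 9 of 81 nuclear ones were higher in the metastases without overlap, where 15.1% of all genes were. Lower without overlap were 0 of 13 and 6 of 81, where 31.0% of all genes were. In Nfib-floxed mice 0 of 13 and 4 of 81 were higher, where 7.76% of all genes were, and 1 of 13 (mt-Nd1) and 7 of 81 were lower, where 14.8% of all genes were. With 3 against 2 libraries such a lack of overlap is common among all genes, as these shares show.

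**Figure D3:**
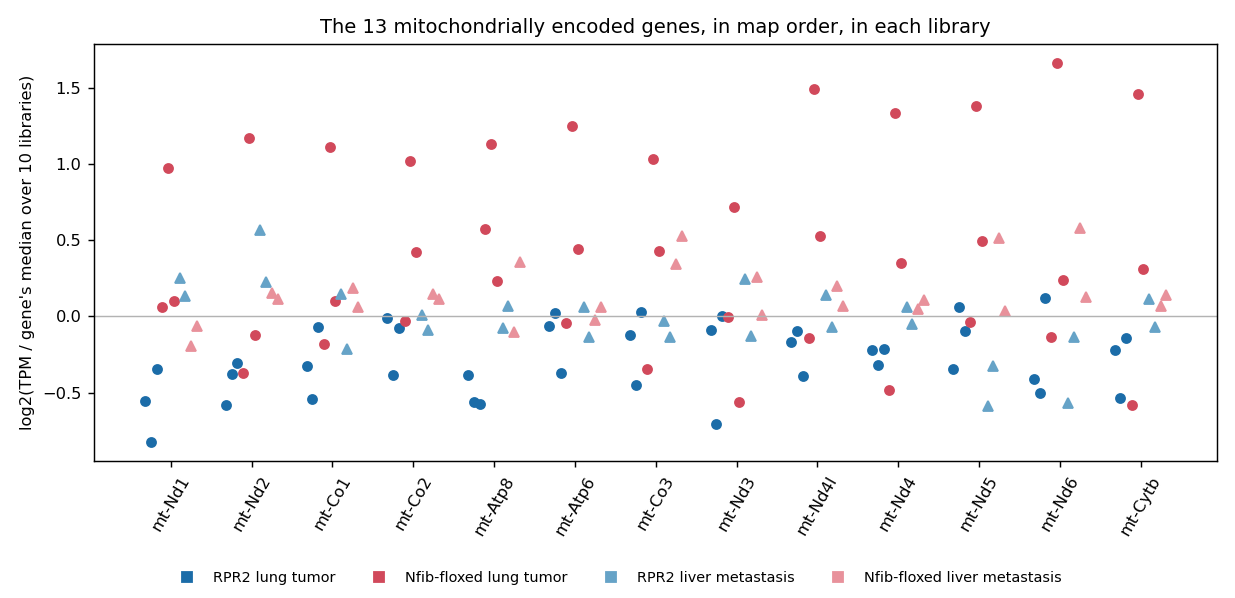
The 13 mitochondrially encoded genes in the order of their positions on mitochondrial DNA, as log2 of TPM over the gene's median in all libraries; circles are lung tumors, triangles are liver metastases, 1 point a library. The lung tumor of JHK1398 is the highest point of all 13 genes, and the RPR2 lung tumors are the 3 lowest points for mt-Nd1 and mt-Atp8.

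The makeup of the mitochondrial messages was not constant. mt-Atp8 made up 14.7% of the mitochondrially encoded TPM in the lung tumor of JHK997 and 6.88% at its lowest, with a median of 8.61% over the 10 libraries. mt-Co3 ranged from 15.7% to 23.4% and mt-Nd6 from 1.70% to 3.73%. The level of mt-Atp8 was 0.676 to 1.55 times that of mt-Atp6, although both lie on a shared message. These genes overlap on mitochondrial DNA (GRCm38, mt-Atp8 from 7766 to 7969 and mt-Atp6 from 7927 to 8607 on the plus strand), so Salmon, the tool that assigned the reads, had to share out those from the common stretch. The stretch of 43 bases at chrM:7927-7969, plus strand, is printed because it limits this ratio; its capitals mark the first codon of mt-Atp6.
mt-Atp8 and mt-Atp6: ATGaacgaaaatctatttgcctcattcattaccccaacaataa
mt-Nd5 and mt-Nd6 overlap by 14 bases on opposite strands. mt-Nd6, the one member on the minus strand, was 1.03 to 1.86 times as high as mt-Nd5 in TPM. The sources used here do not say if strand was kept, so reads of mt-Nd6 and of RNA from the other strand cannot be told apart.

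The summed nuclear members varied little between libraries, and single genes varied widely. Over all 10 libraries the nuclear sum lay between 2.13% and 3.17% of TPM, and the median SD of log2(TPM + 1) was 0.33 over the 81 tested genes against 0.51 over the 13 mitochondrially encoded ones, 0.58 over the other genes tested and 0.48 over those of them that averaged 100 TPM or more. All 13 mitochondrially encoded genes were highest in the lung tumor of JHK1398. The SD of each library's median over these 13 was 0.50 with that tumor and 0.32 without it. Over the nuclear genes it was 0.19 and 0.20. Complex I took 31.3% to 34.9% of the nuclear sum in the Nfib-floxed lung tumors and 27.7% to 29.8% in the RPR2 lung tumors, ranges that do not overlap. Complex V took 27.2% to 30.3% and 30.6% to 32.1%, also without overlap. Complexes II, III and IV overlapped between these groups, and in the metastases complex I took 28.0% and 28.1% in RPR2 and 26.7% and 29.4% in Nfib-floxed libraries. Complexes were assigned by name, so the complex I sum holds Ndufa4 and a pseudogene of Ndufb4, both described below.

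In complex I, which takes electrons from NADH, the core subunit Ndufs3 was among the nuclear members with the smallest p between lung tumors. Ndufs3 stood at 102, 120 and 122 TPM in the RPR2 and at 138, 184 and 150 TPM in the Nfib-floxed lung tumors of JHK997, JHK1398 and JHK1399, which do not overlap, a difference of 0.45 with an adjusted p of 0.63 by limma. Ndufb4, an accessory subunit, stood at 57.0, 54.3 and 92.5 TPM in the RPR2 and at 92.4, 170 and 104 TPM in the Nfib-floxed lung tumors, where JHK1548 and JHK997 meet (difference 0.83, adjusted p 0.59 by limma). Its level is uncertain, because a pseudogene copy, Ndufb4c, singled out after its values were seen, took 66.6% to 81.9% of the TPM of the pair. The pair summed to 268, 300 and 319 TPM in the RPR2 and 407, 510 and 448 TPM in the Nfib-floxed lung tumors, and to 207 and 228 against 355 and 315 TPM in the metastases, without overlap in either tissue. Ndufa4, filed with complex I by name and now counted with complex IV, was the nuclear complex I gene with the highest mean, 474 TPM, and was lowest in the lung tumor of JHK1398, at 176 TPM.

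In complex II, succinate dehydrogenase, which is wholly nuclear encoded and also belongs to the citric acid cycle, Sdhb had the largest SD of log2(TPM + 1), 0.68, and Sdhd the widest range, 4.25-fold. Sdhb ranged from 143 TPM in the lung tumor of JHK1398 to 491 TPM in the RPR2 metastasis of JHK1394. Sdhd, a membrane anchor, stood at 212, 179 and 223 TPM in the RPR2 and at 172, 76.2 and 166 TPM in the Nfib-floxed lung tumors, which do not overlap (difference -0.65, adjusted p 0.64 by limma). It was 324 and 191 TPM in the Nfib-floxed metastases, above all 3 Nfib-floxed lung tumors (difference 0.94, adjusted p 0.49 by limma). Sdha, the catalytic subunit, lay at 108 to 206 TPM in 9 libraries and at 53.6 TPM in the lung tumor of JHK1398. Sdhc, the other anchor, was the steadiest of the 4, at 66.2 to 101 TPM.

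In complex III, which hands electrons to cytochrome c, the hinge subunit Uqcrh had its lowest levels in the Nfib-floxed lung tumors. Uqcrh stood at 716, 398 and 846 TPM in the RPR2 lung tumors and at 398, 325 and 341 TPM in the Nfib-floxed ones, where JHK1394 and JHK997 meet (difference -0.82, adjusted p 0.61 by limma). It was 768 and 443 TPM in the Nfib-floxed metastases. Uqcr10, a small subunit, had the highest nuclear mean in complex III, 577 TPM, and was 453 and 463 TPM in the RPR2 metastases, below the 577 to 741 TPM of the RPR2 lung tumors (difference -0.46, adjusted p 0.46 by limma).

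In complex V, Atp5e and Atp5b, subunits of its catalytic part, had the highest nuclear means of all members, 1155 and 1147 TPM. Atp5b ranged from 703 TPM in the lung tumor of JHK1398 to 1739 TPM in the metastasis of the same mouse. Atp5e was 1995 TPM in that metastasis and 1056 TPM in the other Nfib-floxed one, both above the 881 and 936 TPM of the RPR2 metastases (difference 0.68, adjusted p 0.60 by limma). Atp5g2, 1 of the genes for the rotor ring, was 92.4 and 68.1 TPM in the RPR2 metastases and 54.7 and 38.6 TPM in the Nfib-floxed ones, without overlap (difference -0.77, adjusted p 0.46 by limma).

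The widest differences among all members were those of tissue forms of complex IV subunits. Several nuclear subunits of cytochrome c oxidase come as a common form and a form known from heart and skeletal muscle (Cox6a2, Cox7a1, Cox8b), lung (Cox4i2) or testis (Cox6b2, Cox7b2, Cox8c). Cox6a2 stood at 54.7, 12.6 and 199 TPM in the RPR2 lung tumors of JHK1373, JHK1394 and JHK1548, at 22.9, 46.3 and 141 TPM in the Nfib-floxed lung tumors of JHK997, JHK1398 and JHK1399, at 3.82 and 5.93 TPM in the RPR2 metastases and at 30.0 and 69.5 TPM in the Nfib-floxed ones. The RPR2 metastases were the 2 lowest libraries, and the lung tumors of the genotypes overlap. The difference was -3.20 (SE 0.996, adjusted p 0.098 by limma) between RPR2 metastases and lung tumors, and 3.02 (SE 1.09, adjusted p 0.23 by limma) between Nfib-floxed and RPR2 metastases. Without the lung tumor of JHK1394, the first passed at an adjusted p of 0.032 by limma with a difference of -4.19, and over all 22 alternatives its adjusted p lay between 0.032 and 0.392 by limma. Cox6a2 made up 0.535% to 17.7% of the Cox6a1 and Cox6a2 sum, and the common form Cox6a1 stayed within 551 to 994 TPM.

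Cox7a1 followed Cox6a2 in the metastases. It stood at 4.13 and 1.91 TPM in the RPR2 metastases and at 11.6 and 11.5 TPM in the Nfib-floxed ones, a difference of 1.70 (SE 0.50, adjusted p 0.13 by limma), and at 4.41 to 9.80 TPM and 8.40 to 13.4 TPM in the RPR2 and Nfib-floxed lung tumors. A list of 10 markers of heart and skeletal muscle summed to 9.62 to 38.0 TPM: 11.1 to 14.5 in RPR2 lung tumors, 22.2 to 38.0 in Nfib-floxed lung tumors, 17.8 and 23.0 in RPR2 metastases and 9.62 and 20.1 in Nfib-floxed metastases. The muscle kinase gene Ckm lay at 0.0407 to 2.15 TPM and only Mb was at 0, in 1 lung tumor (JHK1394). The part of muscle cells in the Cox6a2 and Cox7a1 values was not tested, nor was that of the neuroendocrine markers, whose sum was also lowest in the RPR2 metastases. Cox8b was 7.14 TPM in the RPR2 metastasis of JHK1394 and under 1 TPM in the other 9 libraries, and Cox8c was 10.5 TPM in the RPR2 metastasis of JHK1373, 0.230 TPM in the Nfib-floxed metastasis of JHK1399 and listed at 0 in the other 8. Each rests on 1 library. Cox4i2 was 19.04 TPM in the lung tumor of JHK1398 and 1.81 to 7.53 TPM elsewhere.

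Cox6b2 was present in 9 libraries and nearly gone from 1. It stood at 49.7 to 142 TPM in 9 libraries and at 3.59 TPM in the Nfib-floxed lung tumor of JHK1399, while the metastasis of that mouse held 59.6 TPM. The common form Cox6b1 was 546 TPM in that lung tumor and 386 to 635 TPM over all libraries. Relative to its own median and that of the library, Cox6b2 stood at -4.35 there on the log2 scale. The 10 nearest tested genes, 5 on each side, stood at -0.71 to 0.00.

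**Figure D4:**
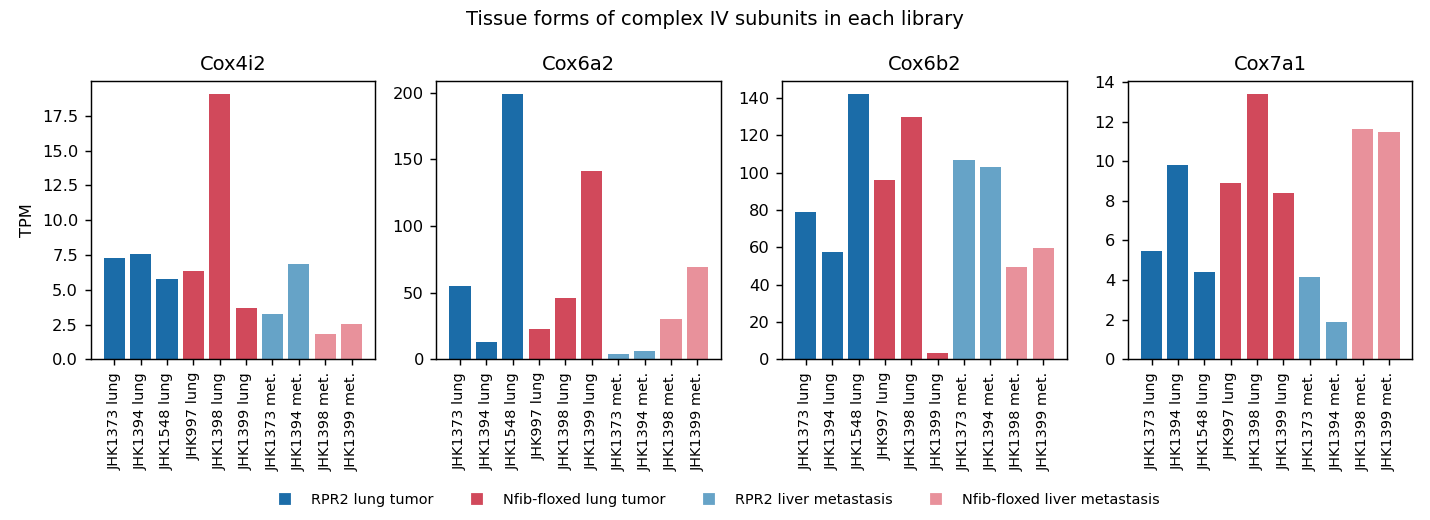
TPM of 4 tissue forms of complex IV subunits, 1 bar a library, colored by group. Cox6a2 is lowest in the 2 RPR2 metastases, at 3.82 and 5.93 TPM, and Cox6b2 is at 3.59 TPM in the lung tumor of JHK1399.

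Position on the chromosome, which the choice of members did not use, went with several of the nuclear differences and not with others. For this, each gene's log2(TPM + 1) was set relative to its median over the 10 libraries, and the median of all tested genes in that library was taken off. In the Nfib-floxed metastasis of JHK1399 all 4 members on chromosome 19 (Ndufv1, Ndufs8, Ndufb8 and Cox8a) were low, at -1.14 to -0.88, and the 507 other tested genes of that chromosome had a median of -0.56, with 87.0% of them below 0. Cox8a, for example, was 406 TPM there and 540 to 1184 TPM in the other libraries. In the lung tumor of JHK1399 all 3 members on the X chromosome (Ndufa1, Ndufb11 and Cox7b) were high, at 0.65 to 1.55, and the 507 other tested genes of the X had a median of 0.87, with 84.6% above 0. Ndufa1 was 883 TPM there and 201 to 406 TPM elsewhere, and its differences between lung tumors (0.84) and between Nfib-floxed tissues (-0.94) were 0.45 and -0.55 without that library.

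The same lung tumor showed a further such stretch. Both members on chromosome 16 beyond 40 Mb, Atp5j and Atp5o, were low, at -0.98 and -0.77, and the 172 other tested genes there had a median of -0.67. Ndufb4, on the same chromosome below 40 Mb, was 0.27 above its median, and the 319 other genes of that end had a median of -0.04. On a distal stretch of chromosome 4, Sdhb and Uqcrh had the sign of their neighbors' median in most libraries: they stood at 0.68 and 0.43 in the lung tumor of JHK1373, where 402 other genes had a median of 0.39, and at -0.54 and -0.36 in that of JHK1394, where the median was -0.34. In the metastases of JHK1394 and JHK1398, Sdhb stood at 1.20 and 1.17 while the neighbors' medians were 0.13 in both. The bounds of these regions were chosen after the values were seen. On other chromosomes the members had the opposite sign to the other genes. In the lung tumor of JHK997, the other genes of chromosomes 7 and 13 had medians of 0.25 and 0.25, and the members -0.12 and -0.23. All nuclear members together had a median of -0.40 in that library, so those of chromosomes 7 and 13 were less low than the set. In the lung tumor of JHK1398, the other genes of chromosome 2 had a median of -0.11 and the members 0.76, where all nuclear members had 0.27. The members' own median in a library was not taken off. Over 190 pairs of a chromosome and a library, the median of the members correlated with the median of the other genes at r = 0.39 (Spearman 0.24), and at r = 0.24 (Spearman 0.22) over the 152 pairs without the libraries of JHK1399; the points share libraries and chromosomes and are given as a description. Copy number was not measured, and its part in these values was not tested.

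**Figure D5:**
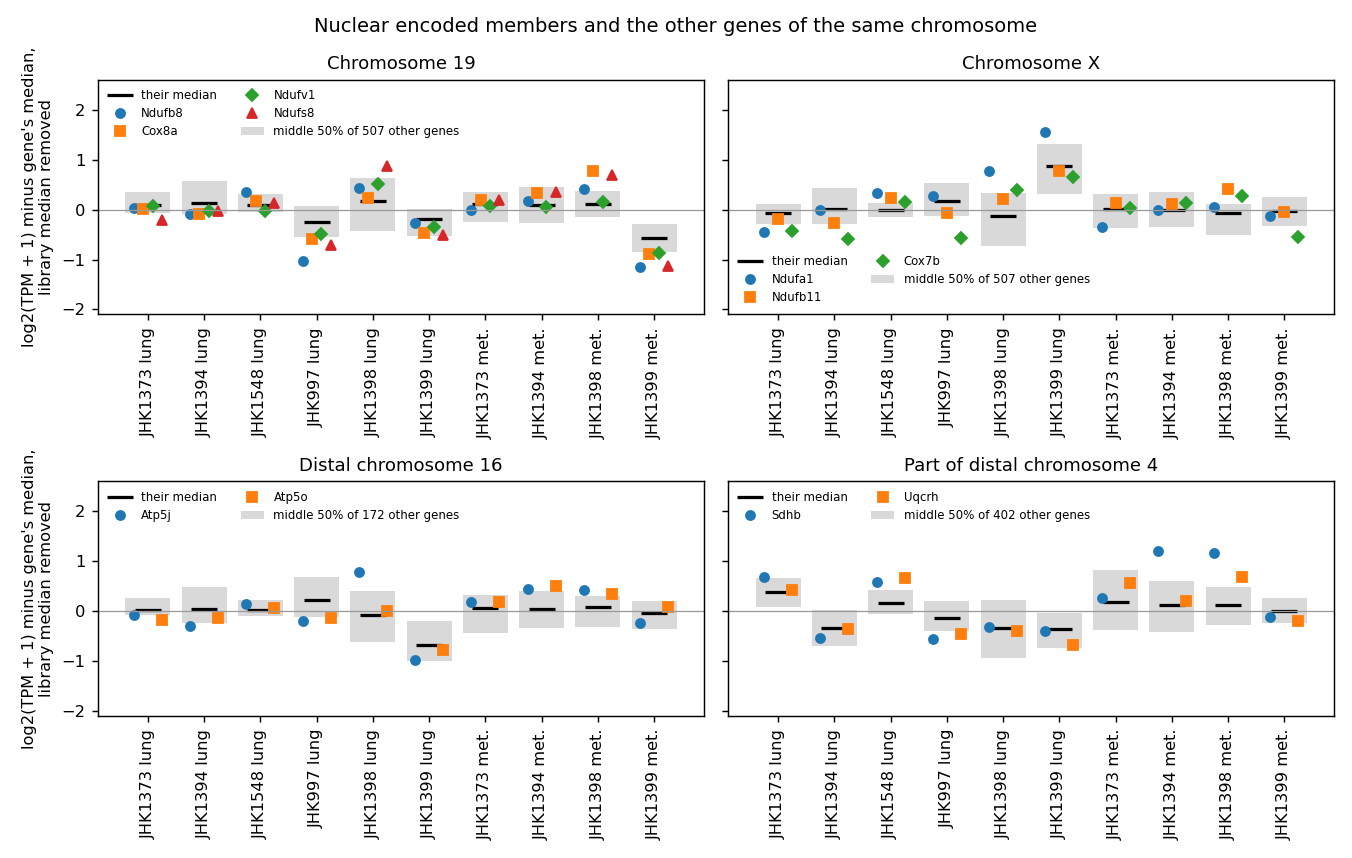
Nuclear encoded members (colored symbols) and the other tested genes of the same chromosome or chromosome part (gray box, middle 50%; black bar, median) in each library, as log2(TPM + 1) minus the gene's median over libraries, with the library median removed. Members and neighbors are low together on chromosome 19 in the JHK1399 metastasis and high together on the X in the JHK1399 lung tumor.

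The promoters of 3 members on the chromosome stretches above (Uqcrh, Cox8a and Atp5j), of Cox6b2, which stood apart from its neighbors, and of Cox6a1 are shown so that their motifs can be compared. Promoters, from 250 bases before to 50 after an annotated start, were taken from RefSeq (GRCm38.p6), where 65 nuclear member symbols matched. The strings of 4 factors known to act on respiratory genes were searched on both strands: CGCATGCG for NRF1, CCGGAAGT for GABPA, AAGATGGCG for YY1 and TCAAGGTCA for the estrogen-related receptors; none of these strings holds another. NRF1's string was found for 9 of the 65 symbols against 2.07% of all symbols, GABPA's for 5 of 65 against 4.31%, YY1's for 7 of 65 against 1.64%, and that of the receptors for 2 of 65 (Atp5g3 and Sdhd) against 0.466%. Member promoters held more CpG dinucleotides than all promoters (medians of 19 and 7), and the strings of NRF1, GABPA and YY1 hold CG. The part of CpG content in these counts was not tested. Of the 4 chromosome 19 members only Cox8a held one, GABPA's, at 2 places. In the first 4 sequences capitals mark these motifs on either strand, and all are written 5′ to 3′ along the gene's strand, here the minus strand: Uqcrh (chr4:116075021-116075320, GABPA), Cox8a (chr19:7217567-7217866, GABPA), Atp5j (chr16:84834927-84835226, NRF1 and YY1) and Cox6a1, the common partner of Cox6a2 (chr5:115348909-115349208, NRF1). For Cox6b2 (chr7:4753045-4753344, minus strand), which held none of the 4, capitals mark its 10 CpG dinucleotides, against a median of 19 over 70 member promoters and 7 over all promoters. For Atp5j only a promoter that held NRF1's string was printed. Its window lies inside the gene, which reaches 84835625 on chromosome 16, so it belongs to another start. A match is a description and not a binding site.
Uqcrh: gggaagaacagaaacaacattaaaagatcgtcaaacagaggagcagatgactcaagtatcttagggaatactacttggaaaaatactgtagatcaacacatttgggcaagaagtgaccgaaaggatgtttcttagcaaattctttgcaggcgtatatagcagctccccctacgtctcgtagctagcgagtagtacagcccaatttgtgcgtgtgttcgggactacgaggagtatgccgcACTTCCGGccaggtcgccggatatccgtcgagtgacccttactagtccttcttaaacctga
Cox8a: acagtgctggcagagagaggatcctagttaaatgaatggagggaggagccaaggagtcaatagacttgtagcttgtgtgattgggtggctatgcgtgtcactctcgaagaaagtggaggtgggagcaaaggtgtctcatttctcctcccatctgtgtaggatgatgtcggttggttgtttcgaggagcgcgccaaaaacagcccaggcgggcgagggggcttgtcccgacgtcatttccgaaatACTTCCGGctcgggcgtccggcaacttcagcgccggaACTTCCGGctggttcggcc
Atp5j: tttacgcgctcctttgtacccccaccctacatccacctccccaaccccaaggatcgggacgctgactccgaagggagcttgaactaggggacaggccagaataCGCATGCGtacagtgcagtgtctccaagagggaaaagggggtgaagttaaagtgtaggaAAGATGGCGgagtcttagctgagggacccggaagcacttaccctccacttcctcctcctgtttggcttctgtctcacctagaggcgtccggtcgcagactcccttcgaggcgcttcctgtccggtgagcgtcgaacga
Cox6a1: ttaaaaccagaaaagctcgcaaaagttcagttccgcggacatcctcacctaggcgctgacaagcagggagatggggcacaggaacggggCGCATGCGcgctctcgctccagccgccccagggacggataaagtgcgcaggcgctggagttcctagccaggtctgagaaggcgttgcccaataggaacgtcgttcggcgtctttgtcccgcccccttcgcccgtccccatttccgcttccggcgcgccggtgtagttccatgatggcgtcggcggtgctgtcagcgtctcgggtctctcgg
Cox6b2: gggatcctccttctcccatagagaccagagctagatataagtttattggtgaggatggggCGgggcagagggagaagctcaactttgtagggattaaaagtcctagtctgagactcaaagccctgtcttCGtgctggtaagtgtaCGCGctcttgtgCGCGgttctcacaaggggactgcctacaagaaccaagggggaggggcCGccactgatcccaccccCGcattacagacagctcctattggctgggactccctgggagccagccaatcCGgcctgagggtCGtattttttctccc

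In the lung tumor of JHK1398, the nuclear members scattered in both directions while the mitochondrial ones were all high. All 13 mitochondrially encoded genes were at their highest of the 10 libraries there, and of the 81 nuclear ones 22 were at their highest and 24 at their lowest. Cox5a (102 TPM against 210 to 398 elsewhere), Sdha, Sdhd, Ndufa4 and Atp5f1 were at their lowest, and Ndufb7 (418 TPM against 154 to 309), Ndufv3 and Ndufa3 at their highest; Ndufb7, Ndufv3 and Ndufa3 were named after their values were seen. Over 80 nuclear members with a transcript in the annotation, the deviation in that library correlated with the transcript's G and C content at a Spearman coefficient of 0.39 and with its length at -0.24. Over 14374 other genes those coefficients were 0.29 and -0.21, and in the other libraries the one for G and C content lay between -0.23 and 0.05 for members. The one for length lay between -0.37 (lung tumor of JHK1548) and 0.12 in the other libraries. The mitochondrially encoded genes, whose median content of 37.1% lies below the 52.4% of the nuclear members, were high in the same library. RNA quality was not measured, and the part of sequence content in these values was not tested.

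Among the other lists of mitochondria and energy metabolism, the joint list of glycolysis and the hypoxia response held the most genes that passed. Of 29 genes of glycolysis and the hypoxia response, 4 rose in Nfib-floxed against RPR2 metastases (Vegfa, Aldoa, Pfkm and Ankrd37) and 0 fell, where 2.04% of all genes passed in either direction, and the median difference was 1.08 against 0.00 over all genes and -0.09 over the nuclear members. Aldoa, a glycolytic enzyme, stood at 268 and 214 TPM in the RPR2 metastases of JHK1373 and JHK1394 and at 1439 and 811 TPM in the Nfib-floxed ones of JHK1398 and JHK1399, a difference of 2.17. Ankrd37, a hypoxia-induced gene, stood at 18.2 and 15.2 TPM and at 122 and 183 TPM, a difference of 3.10, and Pfkm, a phosphofructokinase, at 2.55 and 3.25 TPM and at 26.6 and 36.0 TPM. In RPR2 metastases against lung tumors 2 of the 29 fell (Aldoa and Ankrd37), where 5.61% of all genes passed, a share that 2 of 29 is near. Ankrd37 also passed in the interaction (2.75; all genes 0.581%), and Aldoa and Ankrd37 in the mean genotype effect (1.38 and 1.71; all genes 0.587%). These calls were not stable: with the 2 groups of metastases fitted alone none of the 4 passed (0 of 4; adjusted p by limma 0.205 for Vegfa, 0.192 for Aldoa, 0.141 for Pfkm and 0.133 for Ankrd37), and of 21 alternatives Pfkm lost its call in 13, Vegfa in 9, Aldoa in 4 and Ankrd37 in 1. Leaving out 1 library ended the call of Aldoa for either RPR2 metastasis or the metastasis of JHK1398, with adjusted p over the alternatives of 0.0104 to 0.192 by limma. It ended those of Vegfa and Pfkm for most of the 10 libraries, and that of Ankrd37 between metastases for none of them (0 of 10). Between RPR2 tissues, Ankrd37 lost its call without the metastasis of JHK1394 (adjusted p 0.0602 by limma), and Aldoa without any one of the 5 RPR2 libraries. Hepatocyte markers were higher in the RPR2 metastases, as given above, and 3 of their 16 fell in the same comparison of metastases. Their part in the values of the 29 genes was not tested.

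No gene passed in any of the 7 comparisons among 44 assembly factors of the respiratory chain, 28 genes of mitochondrial DNA upkeep and transcription, 78 mitochondrial ribosomal proteins, 11 tested regulators of mitochondrial biogenesis, 17 genes of the citric acid cycle and pyruvate dehydrogenase, and 17 of the mitochondrial stress response. Of 12 electron carriers and partners, 1 fell in RPR2 metastases against lung tumors, Ucp2, a carrier of the inner membrane, from a mean of 1041 to 282 TPM, and that call was lost in 7 of 22 alternatives, among them leaving out either metastasis or the lung tumor of JHK1373 or JHK1394. Of 83 cytosolic ribosomal proteins, 1 fell in Nfib-floxed metastases against lung tumors (Rps4l, lost in 13 of 22 alternatives, among them leaving out any one of the 5 Nfib-floxed libraries; all genes 0.123%). In the mean tissue effect Rps27 rose and Rps4l fell (all genes 5.88%), and 81 of the 83 lay above 0 with a median of 0.34. Between lung tumors, the medians were -0.20 for mitochondrial ribosomal proteins, -0.37 for the regulators, -0.25 for the citric acid cycle and -0.55 for the stress response. These medians include the lung tumor of JHK1398. Tfam, which packs mitochondrial DNA and helps start its transcription, lay at 57.0 to 85.4 TPM in 9 libraries. It lay at 13.1 TPM in the lung tumor of JHK1398, the library with the highest mitochondrially encoded share. Lrpprc, which stabilizes mitochondrial messages, was also lowest there, at 15.1 TPM against 26.0 to 38.9, as was Hif1a at 14.2 against 57.1 to 94.3, and Nrf1 at 21.7 against 26.7 to 41.4. Ppargc1a, a coactivator of mitochondrial biogenesis, stayed under 3 TPM, at 1.91 and 2.67 in the RPR2 metastases and 0.148 to 1.29 in the other 8 libraries.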

How the data were processed

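RNA was measured in 10 libraries of 6 mice, grouped by the labels. The submitters' processing notes name bcl2fastq (2.20), Salmon (0.12.0), R (4.1.0) and GRCm38, and settings, annotation and strand were not found in them or the labels. The values the authors deposited are gene-level TPM. Each column adds up to 1000000, so sequencing depth is unknown and counting intervals cannot be given. Reads that fit several similar or overlapping genes are divided among them by Salmon's estimate.

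From the TPM, log2(TPM + 1) was tested with limma 3.58.1 in R 4.3.3 for the 15503 genes that averaged 1 TPM or more. A single model of the 4 groups, with moderated variances and a mean trend (residual degrees of freedom 6, prior 4.56), gave 7 two-sided comparisons, with a Benjamini-Hochberg adjusted p under 0.05. Mouse was a random effect (correlation 0.051) in the mean genotype effect. The mouse tags in the labels pair the tissues of 4 mice; correlations of the paired deviations were -0.0229, -0.008, 0.0426 and 0.0489. The fit was also run on simulated data with added differences larger than most of those described here. That run does not cover small differences. Python 3.11.15 with numpy 2.4.6, pandas 2.3.3 and matplotlib 3.10.9 did the rest. Positions and transcripts came from GENCODE vM21 (GRCm38), which held all 107 members, and promoters from RefSeq.

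Named were all mitochondrially encoded genes, tissue forms, the Sdh genes, the most abundant nuclear member of each complex and, where fewer than 5 members passed, the 5 with the smallest p in each direction. The members and lists were chosen with earlier results of these data known. Alternatives covered pseudocounts, filters, normalization, rescaling, the mouse block and leaving out libraries. Mice are the replicates; nothing says that a sample is 1 tumor. Some genes are not reported here.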

Additional observations from a re-analysis of the deposited data

Results flagged for a closer look

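The mitochondrially encoded share of TPM moved in opposite directions from lung tumor to metastasis in the 2 genotypes. It was higher in the metastasis by 1.02 percentage points in JHK1373 and by 1.12 in JHK1394, both RPR2, and the same difference was -6.45 in JHK1398 and -0.503 in JHK1399, both Nfib-floxed. The difference between the genotypes was not tested. The ratio of the mitochondrially to the nuclear encoded sum did not split in this way, since metastasis minus lung tumor was 0.25 on the log2 scale in JHK1373, -0.02 in JHK1394, -1.32 in JHK1398 and 0.19 in JHK1399.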

How the results depend on the processing

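The count of members that passed stayed at 0 under every alternative run except these, where it was 1: without a filter on low values in Nfib-floxed against RPR2 metastases and in RPR2 metastases against lung tumors (Cox7b2 in both), without the RPR2 metastasis of JHK1394 in those comparisons and in the mean tissue effect (Cox8c in all 3), and without the RPR2 lung tumor of JHK1394 in the RPR2 tissue comparison (Cox6a2). Leaving out 1 library at a time thus gave 0 to 1. With the mouse as a random replicate block the count was 0. It was also 0 with a fixed block, which was fitted only for the tissue comparisons, their mean and the interaction. With a main count of 0, this cannot show what pairing changes. The median difference of the mitochondrially encoded genes between lung tumors was 0.20 without the lung tumors of JHK1394 and JHK1398, and that between Nfib-floxed tissues was 0.14 without them. The median of the nuclear genes between RPR2 tissues was 0.31 with median centring. Leaving out 1 library at a time, the mitochondrial median between Nfib-floxed tissues ranged from -0.60 to 0.14. The mitochondrially encoded share differed by 1.43 to 5.16 percentage points between lung tumors and by -3.48 to 0.253 between Nfib-floxed tissues, and the nuclear share by -0.547 to 0.409 between metastases and by -0.255 to 0.701 between Nfib-floxed tissues. Of 1290 recomputed values of 61 gene differences, 5 turned sign or went to 0: Cox8c without the RPR2 metastasis of JHK1373 (0.15 between metastases and exactly 0 between RPR2 tissues), mt-Co3 between lung tumors with quantile normalization (-0.11), and mt-Nd3 there without the lung tumor of JHK1398 (-0.0201, in a range of -0.0201 to 0.62 over leaving out each library) and without those of JHK1394 and JHK1398 (-0.24). Cox6a2 (-4.19) and Cox8c (-3.38 and 3.53) came to pass as above, and 57 values of genes outside the members lost their call. For the shares, the median over members is on another scale and was not run; no interaction or mean effect was fitted on 2 groups. TPM keeps no depth, so precision at low levels is unknown.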
